A study of Homo sapiens with 4 samples.

Results

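The cell cycle and DNA replication genes described here are the protein-coding genes of the deposited table whose symbols begin with a set of family names. The names cover the MCM helicase, replication factor C, DNA polymerases alpha, delta and epsilon, cyclins A, B and E (not the D cyclins, which are described at the end), CDKs and their inhibitors, centromere proteins, kinesins, mitotic kinases, condensins and cohesins, with single genes such as PCNA, TYMS, TOP2A and MKI67. Of the 2897 genes in the table, 76 met this rule, and all 76 passed the filter of a mean of at least 1 FPKM, which 2883 genes passed. The rule works on names and used no measured value. It also took 12 genes whose products are known for other roles, such as the cargo kinesin KIF5B and the transcription kinase CDK9. These 12 are described apart below but stay in the counts over all 76 members.

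Progress through the cell cycle is driven by cyclin-dependent kinases, which cyclins activate and CDK inhibitors block. In G1, CDK4 and CDK6 release E2F factors from RB proteins, and E2F turns on the genes that load the MCM helicase and copy DNA. Later, a different set of genes for spindle, centromere and chromosome condensation is switched on through CHR elements and NF-Y boxes in their promoters, and tumour cells in culture express both sets.

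RNA came from AGS-1 and HGC-27 cells, both derived from human stomach cancer, untreated or given isorhamnetin (ISO), a plant flavonol. The 4 groups were the AGS-1 control, AGS-1 with 50 μM ISO for 24 h, the HGC-27 control and HGC-27 with the same dose and time of ISO, with 1 library each. The dose stated in the text of the study differs from that of the labels. The values are FPKM, fragments scaled to gene length and library size, and whole fragments could be recovered from them, with totals of 15235004 in the AGS-1 control, 15957590 in AGS-1 with ISO, 20199425 in the HGC-27 control and 17072456 in HGC-27 with ISO.

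The lines differed in their markers. The 7 epithelial markers in the table, of 8 looked for, summed to 2197 FPKM in untreated AGS-1 cells and 1416 FPKM after ISO, with KRT19 the most abundant in the control, and to 5.86 and 4.54 FPKM in HGC-27, where KRT19 was listed at 0. The 3 mesenchymal markers in the table, of 6, summed to 0.712 and 0.860 FPKM in AGS-1 and to 734 and 483 FPKM in HGC-27, with VIM and TWIST1 leading. The 2 collagens listed among 5 stromal markers summed to 9.75 and 6.83 FPKM in AGS-1 and to 776 and 602 FPKM in HGC-27. LYZ, the only leukocyte marker in the table, was at 594 and 314 FPKM in AGS-1 and listed at 0 in HGC-27. No gastric mucous or endothelial marker of the lists was in the table. The summed epithelial markers were thus far higher in AGS-1, except that KRT7, at most 4.02 FPKM in any library, was not called between the lines. The part of this difference in the comparisons between the lines was not tested.

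The 76 genes held 155504 fragments in untreated AGS-1 cells (1.02% of the library, exact 95% binomial interval 1.02 to 1.03%) and 139910 with ISO (0.877%, interval 0.872 to 0.881%). In HGC-27 they held 228885 fragments (1.13%, interval 1.13 to 1.14%) and 177921 with ISO (1.04%, interval 1.04 to 1.05%). Of the fragments on listed nuclear genes, however, they made up 1.48% in untreated AGS-1 cells and 1.75% after ISO, against 2.21% and 2.19% in HGC-27. Mitochondrial genes took 9.43% of the untreated AGS-1 library and 14.3% after ISO, and 9.75% and 12.4% in HGC-27. All listed genes held 78.5% of the AGS-1 control library and 64.4% of that with ISO, and 61.05% and 59.96% in HGC-27. The members' share in AGS-1 was lower with ISO against the whole library and higher against the listed nuclear genes, which held less of the library. These intervals cover counting only, as do the errors of single genes. In such bulk samples a smaller share of cells in a phase and less RNA per cell cannot be told apart.

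**Figure D1:**
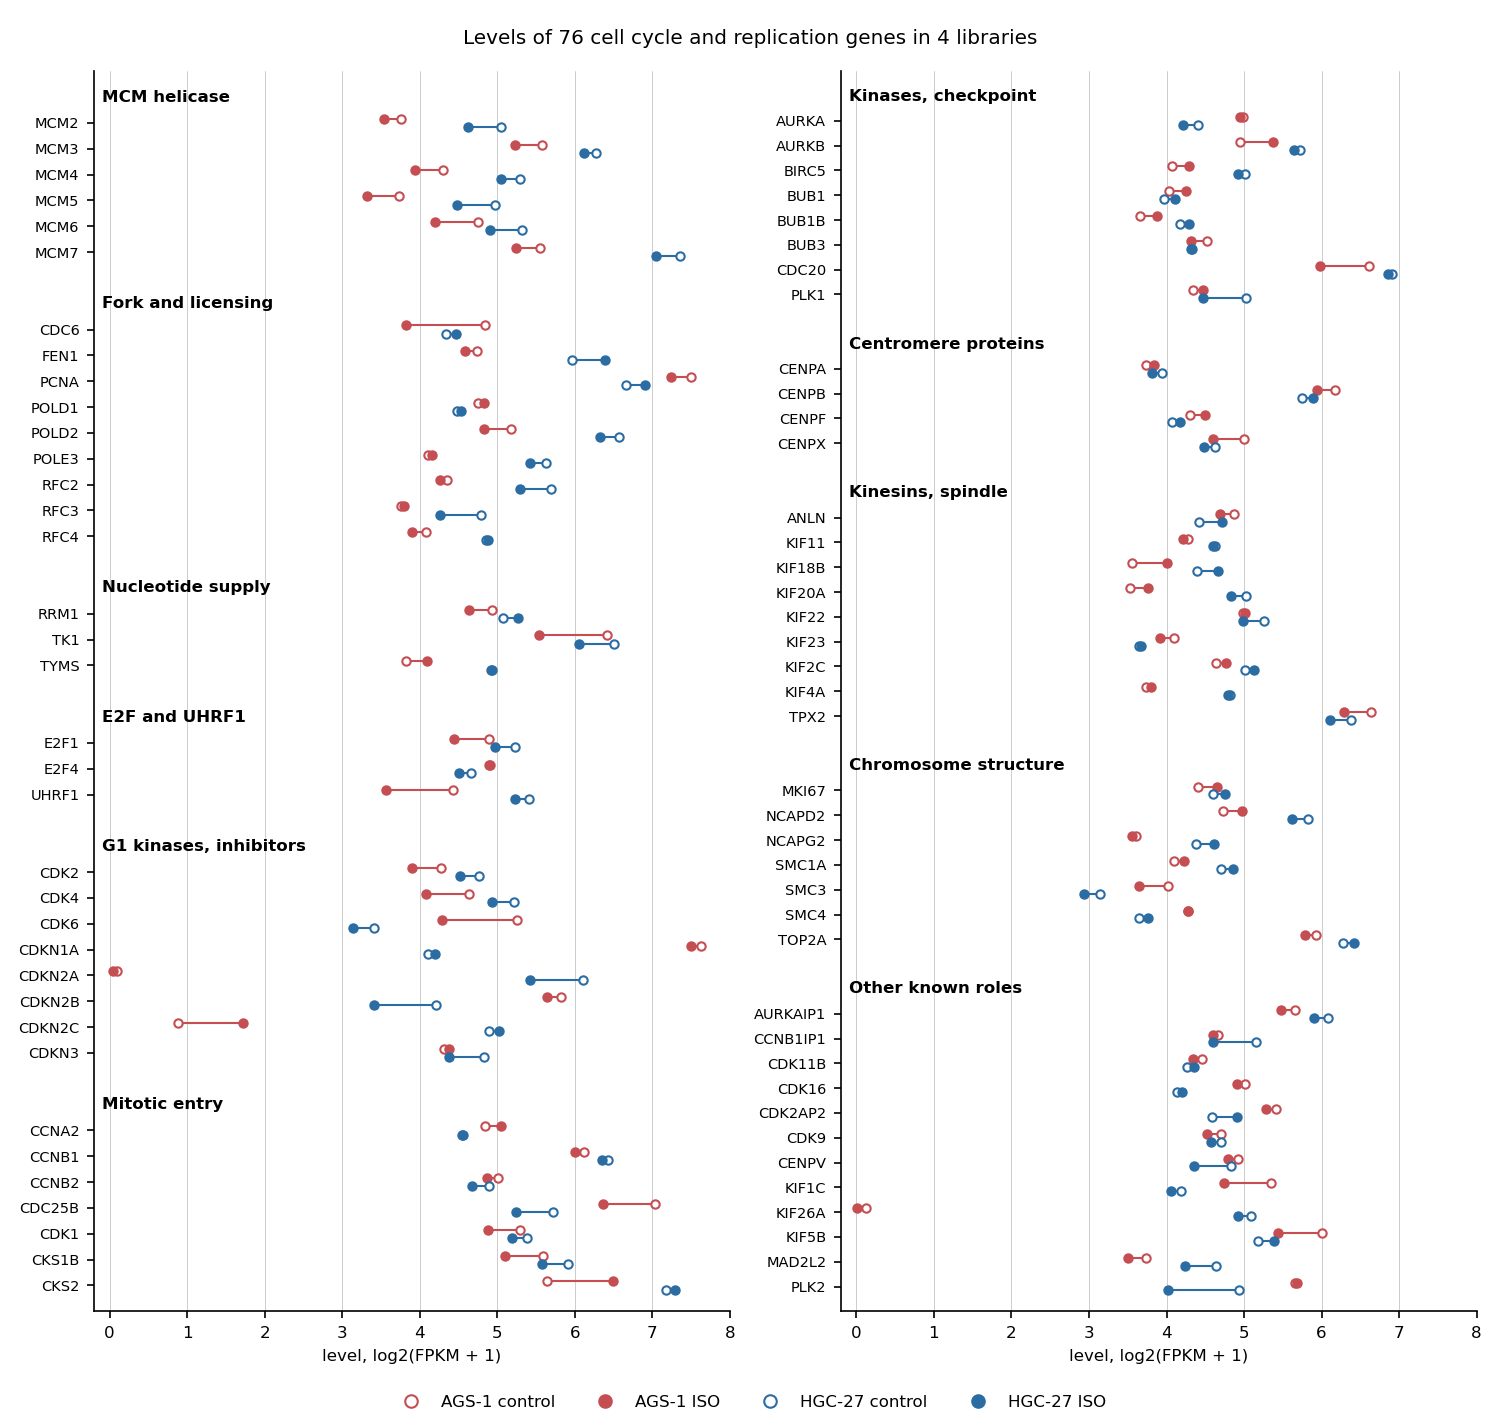
Level of each of the 76 genes in the 4 libraries, as log2(FPKM + 1), grouped by role. Open circles are controls and filled circles ISO, with AGS-1 in red and HGC-27 in blue, 1 library per circle. CDKN2A and KIF26A lie near 0 in both AGS-1 libraries and CDKN2C under a log2 value of 2.

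The change with ISO was the log2 ratio of FPKM + 1 between the ISO and the control library of a line, which understates the change of low genes. On the deposited scaling the median ratio of all genes tested was −0.29 for AGS-1 and −0.11 for HGC-27. Ratios are therefore also given relative to that median, and any ratio between −0.29 and 0 in AGS-1, or between −0.11 and 0 in HGC-27, turns positive on that scale. With 1 library per condition no spread between cultures could be measured, so the ratios within a line describe these libraries and carry no p-value.

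In AGS-1 the members as a whole lay above the other genes. Their median log2 ratio was −0.13, which is 0.16 above the median of all genes, and 53 of the 76 lay above that median. These include CDKN2A and KIF26A, whose fragments in AGS-1, under 10 per library, were too few to place them, since the pseudocount holds their ratios near 0. CDC6 was the only member to reach 2-fold, as a fall, against 6.66% of all genes tested that fell and 0.832% that rose by this much. At 1.5-fold, 7 members fell, beside 24.2% of all genes, and 2 rose, beside 2.46%. The 7 were CDC6, CDK6, TK1, UHRF1, CDC25B, CDC20 and KIF1C, and the 2 were CKS2 and CDKN2C. Relative to the median of all genes, 3 fell (CDC6, CDK6 and TK1), beside 10.1%, and 4 rose (CKS2, CDKN2C, KIF18B and AURKB), beside 5.76%. Upper-quartile scaling, which put the median of all genes at 0.10, left 1 fall, beside 6.49% of all genes, and 13 rises, beside 9.71%.

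In HGC-27 the members followed the other genes. Their median log2 ratio was −0.13, or −0.03 relative to all genes, and 35 of 76 lay above the median of all genes. None reached 2-fold, which 0.937% of all genes did as falls and 0.555% as rises. At 1.5-fold, 3 fell (PLK2, CDKN2B and CDKN2A), beside 5.41% of all genes, and none rose, beside 2.39%. Relative to the median of all genes, 2 fell (PLK2 and CDKN2B), beside 3.19%, and none rose, beside 3.99%.

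**Figure D2:**
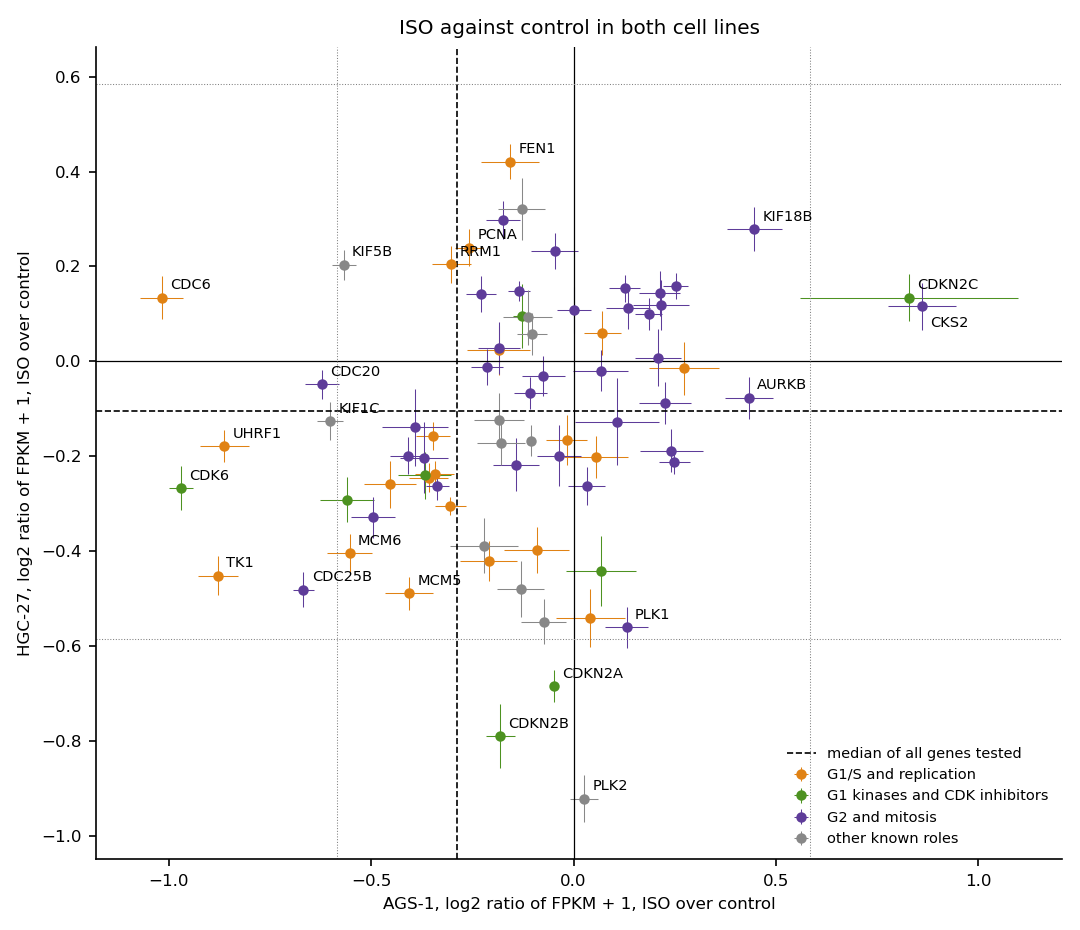
Log2 ratio of FPKM + 1, ISO over control, in AGS-1 (x axis) and HGC-27 (y axis) for each member, coloured by role. Bars are standard errors from counting (not drawn in AGS-1 for CDKN2A and KIF26A, with under 10 fragments), dashed lines the medians of all genes tested and dotted lines a 1.5-fold change. CDC6 lies farthest left at −1.02, CKS2 farthest right at 0.86 and PLK2 lowest at −0.92.

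MCM2 to MCM7 form the ring helicase that unwinds DNA at each fork. All 6 subunits had ratios below 0 in both lines, from −0.21 to −0.55 in AGS-1 and from −0.16 to −0.49 in HGC-27. MCM6 had 26.0 FPKM in untreated AGS-1 cells and 17.4 after ISO, against 38.8 and 29.1 FPKM in HGC-27, so the ISO library was the lower of each pair. MCM7, the most abundant subunit in HGC-27, had 45.9 and 36.9 FPKM in AGS-1 and 163 and 132 FPKM in HGC-27. The log2 ratio of MCM7 was −0.30 ± 0.04 (counting standard error) in AGS-1 and −0.30 ± 0.02 in HGC-27. MCM5 had ratios of −0.41 ± 0.06 and −0.49 ± 0.04, and MCM2 of −0.21 ± 0.07 and −0.42 ± 0.04. In AGS-1 these values lie near the shift of all genes. The median of the 6 was −0.35 as deposited, −0.06 relative to all genes and 0.06 with upper-quartile scaling, so its direction flipped. In HGC-27 the median of the 6 was −0.35, −0.25 and −0.21 on the same scales, with 6 of 6 below 0 on each.

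CDC6, which loads the MCM ring onto origins together with CDT1, lies at chr17:40287879-40304657 on hg38. It had 27.7 FPKM (2238 fragments) in untreated AGS-1 cells and 13.2 FPKM (1115 fragments) after ISO. In HGC-27 it had 19.2 and 21.2 FPKM. The AGS-1 control was thus the highest of the 4 and AGS-1 with ISO the lowest. Its log2 ratio in AGS-1 was −1.02 ± 0.05, a 2.02-fold fall, and −0.73 relative to all genes, which is no longer 2-fold. In HGC-27 the ratio was 0.13 ± 0.05.

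The sliding clamp and the flap nuclease had ratios of the same signs as CDC6, smaller in AGS-1 and larger in HGC-27. PCNA, the clamp that holds polymerases on DNA, had 179.8 and 150.1 FPKM in AGS-1 and 100.4 and 119 FPKM in HGC-27, with log2 ratios of −0.26 ± 0.03 and 0.24 ± 0.04. FEN1, which trims Okazaki fragments, had 25.7 and 23.0 FPKM in AGS-1 and 61.5 and 82.7 FPKM in HGC-27, where its ratio of 0.42 ± 0.04 was the highest among members. For both genes the ISO library was the lower in AGS-1 and the higher in HGC-27, as deposited. Relative to all genes both lay above 0 in both lines, PCNA at 0.03 and 0.35 and FEN1 at 0.13 and 0.53. POLD1, the catalytic subunit of polymerase delta, stayed near 0 with ratios of 0.07 ± 0.05 and 0.06 ± 0.05. RFC4, a subunit of the clamp loader, had ratios of −0.19 ± 0.08 and 0.02 ± 0.05. The other fork members POLD2, POLE3, RFC2 and RFC3 had ratios from −0.34 to 0.06 in AGS-1 and from −0.54 to −0.20 in HGC-27. The median over the 9 fork and licensing members was −0.16 for AGS-1 and 0.02 for HGC-27, and on the relative scale 0.13 for both, so that its direction in AGS-1 flipped with the scaling.

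Enzymes of nucleotide supply went different ways. TK1, the thymidine kinase of the salvage pathway, had 84.7 and 45.6 FPKM in AGS-1 and 89.5 and 65.2 FPKM in HGC-27. Its ISO libraries were the lowest of the 4, with log2 ratios of −0.88 ± 0.05 and −0.45 ± 0.04, or −0.59 and −0.35 relative to all genes. TYMS, which makes thymidylate from scratch, had 13.2 and 16.1 FPKM in AGS-1 and 29.5 and 29.2 FPKM in HGC-27, with ratios of 0.27 ± 0.09 and −0.01 ± 0.06. RRM1, the large subunit of ribonucleotide reductase, had ratios of −0.30 ± 0.05 and 0.20 ± 0.04. Exons of ENOSF1 overlap 39.2% of the exon bases of TYMS, so fragments of that gene may be counted with it.

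E2F1, the activator of the G1/S genes, had 28.7 and 20.7 FPKM in AGS-1 and 36.5 and 30.4 FPKM in HGC-27, with log2 ratios of −0.45 ± 0.06 and −0.26 ± 0.05. UHRF1, which brings the maintenance DNA methyltransferase to new DNA, had 20.5 and 10.8 FPKM in AGS-1 and 41.4 and 36.4 FPKM in HGC-27. AGS-1 with ISO was the lowest of the 4 libraries for both genes. UHRF1 fell by 0.86 ± 0.06 on the log2 scale in AGS-1, or 0.57 relative to all genes (just under 1.5-fold), and its ratio in HGC-27 was −0.18 ± 0.03.

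Among the G1 kinases, CDK6 had 37.1 FPKM in untreated AGS-1 cells and 18.5 after ISO, against 9.59 and 7.80 FPKM in HGC-27. The log2 ratio of CDK6 was −0.97 ± 0.03 in AGS-1, or −0.68 relative to all genes, and −0.27 ± 0.05 in HGC-27. CDK4, which pairs with the same D cyclins, had 23.8 and 15.9 FPKM in AGS-1 and 36.2 and 29.4 FPKM in HGC-27. The ISO library was the lower of each pair for both kinases. CDK2, the partner of cyclins E and A, had ratios of −0.37 ± 0.07 and −0.24 ± 0.05. Exons of TSPAN31 overlap 43.2% of those of CDK4.

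Several CDK inhibitors differed widely between the lines. CDKN1A (p21), a target of p53, had 196 and 179 FPKM in AGS-1 and 16.2 and 17.3 FPKM in HGC-27, with log2 ratios of −0.13 ± 0.02 and 0.10 ± 0.07. CDKN2B (p15) had 55.7 and 49.0 FPKM in AGS-1 and 17.5 and 9.68 FPKM in HGC-27, where it fell by 0.79 ± 0.07 on the log2 scale. CDKN2A, which encodes p16 and ARF, had 68.1 and 42.0 FPKM in HGC-27, a fall of 1.61-fold, and 4 and 2 fragments in the AGS-1 libraries. CDKN2C (p18) had 28.6 and 31.5 FPKM in HGC-27 and 0.848 and 2.28 FPKM (39 and 110 fragments) in AGS-1. The rise of CDKN2C in AGS-1, 0.83 ± 0.27 on the log2 scale, thus took place at a level far under that in HGC-27. CDKN3, a phosphatase that acts on CDKs, had ratios of 0.07 ± 0.09 and −0.44 ± 0.07.

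Members that act at entry into mitosis split in AGS-1. CKS2, a small subunit that docks CDKs to their substrates, lies at chr9:89311195-89316703 and had 48.8 and 89.4 FPKM in AGS-1 and 144 and 156 FPKM in HGC-27. It rose by 0.86 ± 0.08 on the log2 scale in AGS-1, a 1.82-fold change, and by 1.15 relative to all genes, while its ratio in HGC-27 was 0.12 ± 0.05. Its paralogue CKS1B had ratios of −0.50 ± 0.05 and −0.33 ± 0.04, so the 2 CKS genes lay on opposite sides of 0 in AGS-1. CDC25B, a phosphatase that activates CDK1, had 130.3 and 81.7 FPKM in AGS-1 and 51.7 and 36.7 FPKM in HGC-27, with ratios of −0.67 ± 0.03 and −0.48 ± 0.04. CDK1 had ratios of −0.41 ± 0.05 and −0.20 ± 0.04, and its partner CCNB1 of −0.11 ± 0.04 and −0.07 ± 0.03. CCNA2, the cyclin of S and G2, had 27.7 and 32.1 FPKM in AGS-1 and 22.4 and 22.5 FPKM in HGC-27.

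Kinases and checkpoint proteins of mitosis had a higher median ratio in AGS-1 than the replication roles, though not every member did. The median log2 ratio of the 8 was 0.17 for AGS-1 and −0.06 for HGC-27, or 0.46 and 0.04 relative to all genes. AURKB, the kinase of the chromosomal passenger complex, had 29.8 and 40.5 FPKM in AGS-1 and 51.8 and 49.1 FPKM in HGC-27, and BIRC5 (survivin) of the same complex had 15.7 and 18.6 and 31.3 and 29.4 FPKM. The ISO library was the higher in AGS-1 and the lower in HGC-27 for both, and the AURKB ratio in AGS-1 was 0.43 ± 0.06, or 0.72 relative to all genes. BUB1 and BUB1B, kinases of the spindle checkpoint, had ratios of 0.21 ± 0.05 and 0.22 ± 0.07 in AGS-1 and of 0.14 ± 0.05 and 0.12 ± 0.05 in HGC-27. BUB3, their partner, had ratios of −0.21 ± 0.04 and −0.01 ± 0.04, and AURKA, the centrosomal kinase, of −0.04 ± 0.05 and −0.20 ± 0.06. CDC20, which activates the anaphase promoting complex, had the lowest AGS-1 ratio of the 8, with 96.4 and 62.4 FPKM in AGS-1 and 119 and 115 FPKM in HGC-27. It fell by 0.62 ± 0.04 on the log2 scale in AGS-1, or 0.33 relative to all genes, and its ratio in HGC-27 was −0.05 ± 0.03. PLK1, which acts from centrosomes to cytokinesis, had 19.3 and 21.2 FPKM in AGS-1 and 31.6 and 21.1 FPKM in HGC-27, with ratios of 0.13 ± 0.05 and −0.56 ± 0.04.

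No centromere protein, mitotic kinesin or chromosome protein reached 1.5-fold in either line as deposited. CENPF of the outer kinetochore had ratios of 0.19 ± 0.03 and 0.10 ± 0.03, and CENPA, the histone of centromeres, of 0.11 ± 0.10 and −0.13 ± 0.09. KIF18B, which shortens microtubule ends, had 10.8 and 15.04 FPKM in AGS-1 and 19.96 and 24.4 FPKM in HGC-27, with ratios of 0.45 ± 0.07 and 0.28 ± 0.05, so both ISO libraries were the higher. KIF20A, needed for cytokinesis, had ratios of 0.24 ± 0.08 and −0.19 ± 0.04, while KIF11 and KIF23 lay between −0.18 and 0.03 in both lines. TPX2, which seeds spindle microtubules, had 98.2 and 77.5 FPKM in AGS-1 and 82.1 and 68.3 FPKM in HGC-27. ANLN, a scaffold of the cleavage furrow, had ratios of −0.17 ± 0.04 and 0.30 ± 0.04. MKI67, the Ki-67 protein that coats mitotic chromosomes, had 20.2 and 24.2 FPKM in AGS-1 and 23.3 and 26.1 FPKM in HGC-27, with ratios of 0.25 ± 0.03 and 0.16 ± 0.03. Both ISO libraries were thus higher for MKI67, a common marker of proliferating cells. TOP2A, the topoisomerase of S and M phase, had ratios of −0.13 ± 0.03 and 0.15 ± 0.02, and the condensin subunit NCAPD2 of 0.25 ± 0.04 and −0.21 ± 0.03. SMC4 of the same complex had ratios of 0.00 ± 0.04 and 0.11 ± 0.05, and the cohesin subunit SMC3 of −0.37 ± 0.06 and −0.20 ± 0.07. Exons of IFT80 and TRIM59 overlap 25.6% of those of SMC4.

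Set side by side, the 21 members of the G1/S and replication roles had a median log2 ratio of −0.30 for AGS-1 and −0.20 for HGC-27, and the 35 of the G2 and mitosis roles 0.00 and −0.03. Relative to all genes these were −0.01 and −0.10 for the first group and 0.29 and 0.07 for the second. In AGS-1, 10 of the 21 and 28 of the 35 lay above the median of all genes, and in HGC-27 7 of the 21 and 22 of the 35. The mitotic group lay above the replication group in both lines, which is a difference between groups of genes in these libraries and was not tested over samples.

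**Figure D3:**
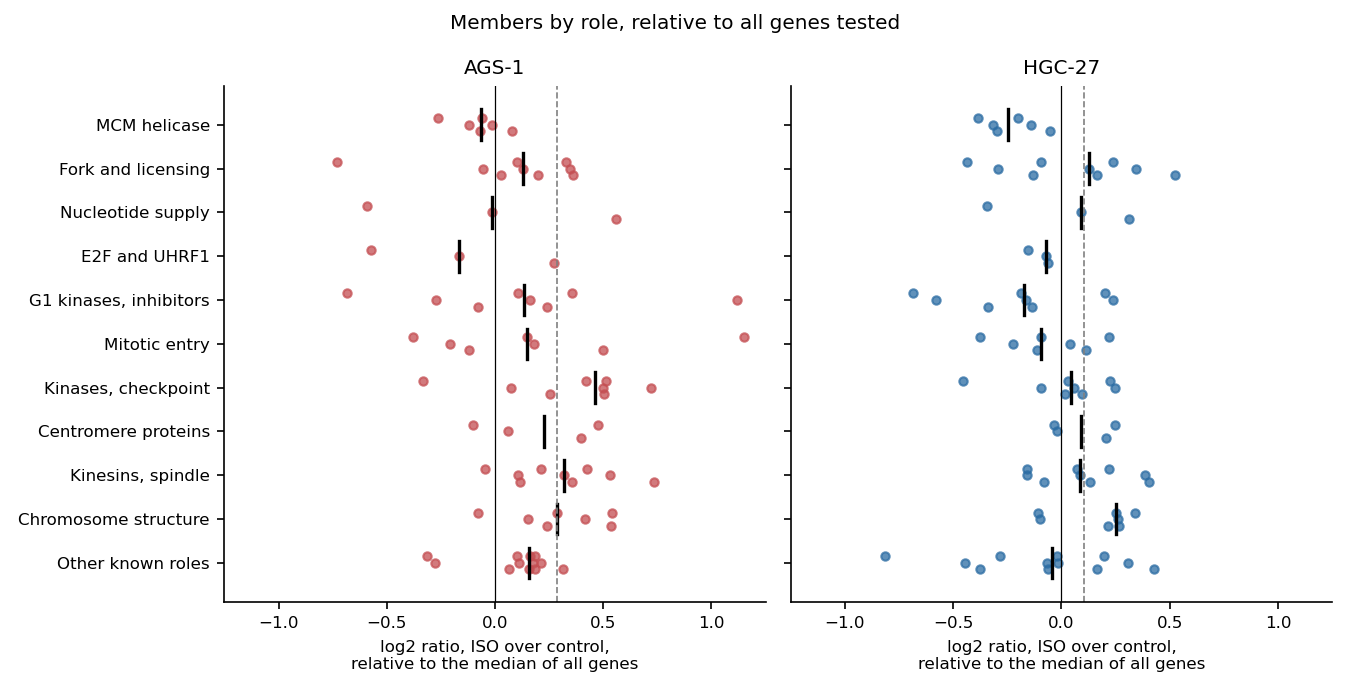
Log2 ratio of ISO over control relative to the median of all genes tested (0, solid line), by role, in AGS-1 and HGC-27. Points are members, short black bars role medians and the dashed line marks where a deposited ratio of 0 falls. The mitotic kinases and checkpoint proteins have the highest role median in AGS-1 (0.46) and the MCM subunits the lowest in HGC-27 (−0.25).

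Among the 12 members known for other roles, 10 lay above the median of all genes in AGS-1, KIF26A on too few fragments to be placed, and 4 in HGC-27. PLK2, a stress-induced kinase, had 49.3 and 50.2 FPKM in AGS-1 and 29.7 and 15.2 FPKM in HGC-27, so that HGC-27 with ISO was the lowest library. Its log2 ratio in HGC-27, −0.92 ± 0.05, was the lowest of all members there. KIF5B, which carries cargo along microtubules, had 63.3 and 42.4 FPKM in AGS-1 and 35.4 and 40.9 FPKM in HGC-27, with ratios of −0.57 ± 0.03 and 0.20 ± 0.03. KIF1C, another cargo kinesin, fell by 0.60 ± 0.03 on the log2 scale in AGS-1, or 0.31 relative to all genes. CCNB1IP1, a ubiquitin ligase, had ratios of −0.07 ± 0.06 and −0.55 ± 0.05, and CDK2AP2 of −0.13 ± 0.06 and 0.32 ± 0.07.

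Of the 76 members, 28 had ratios of opposite sign in the lines, beside 855 of the 2883 genes tested. For 13 of the 28 members both ratios lay beyond the 95% counting interval around 0. Of these 13, PCNA, TOP2A, FEN1, CENPB, CDK2AP2, ANLN and BIRC5 lay above the median of all genes in both lines. Their opposite signs thus hold only as deposited, while the others of the 13 stayed opposite on the relative scale. No member had ratios of at least 0.3 in size both ways as deposited. Relative to all genes, 4 did: PLK1 (0.42 in AGS-1 and −0.46 in HGC-27), PLK2 (0.31 and −0.82), RFC3 (0.33 and −0.44) and CDKN3 (0.36 and −0.34). The shares of all genes passing the counting cut and the cut of 0.3 were not counted, so these counts have no background. The difference between the lines in the response to ISO could not be tested, since each line has 1 library per condition.

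Taking both lines together gave the only comparison of ISO with more than 1 library per side, fitted with limma over all 2883 genes with line and treatment in the model. It has 1 residual degree of freedom. With 1 library per line and treatment, that residual is how far the ISO ratios of the 2 lines differ. limma drew its size toward that of all genes. The p-values therefore do not measure a spread between replicate cultures, and the labels do not say whether libraries came from separate cultures. No member reached an adjusted p under 0.05 in limma, beside 0.937% of all genes tested. At an unadjusted p under 0.05, 8 members were lower with ISO, beside 17.8% of all genes, and 0 higher, beside 2.22%. These 8 were TK1, CDK6, CDC25B, MCM6, UHRF1, CDKN2B, MCM5 and CDK4. The smallest limma p was that of TK1, with a shared log2 change of −0.67 ± 0.22 (standard error) and an adjusted p of 0.144, lower in 2 of 2 lines. Next came CDK6 at −0.62 ± 0.22 (adjusted p = 0.153 in limma) and CDC25B at −0.57 ± 0.22 (adjusted p = 0.179). With median-of-ratios scaling 4 members passed the unadjusted cut, 2 lower and 2 higher with ISO, beside 10.7% and 7.01% of all genes. With upper-quartile scaling 1 was lower and 9 higher, beside 5.45% and 12.1%.

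Levels of members differed between AGS-1 and HGC-27 more than they did with ISO. In the line term of the same limma fit, 15 members were higher in HGC-27, beside 12% of all genes tested, and 5 were higher in AGS-1, beside 19.5%. The 15 include CDKN2A and KIF26A, which averaged under 1 FPKM in AGS-1 and passed the filter only through HGC-27. With upper-quartile scaling 22 were higher in HGC-27, beside 16.8% of all genes, and 3 in AGS-1, beside 16.3%. The median log2 difference, AGS-1 minus HGC-27, was −0.35 over the members and 0.05 over all genes. The 2 libraries of a line are 1 control and 1 ISO library. The p-values of the line term thus rest on the same residual and not on replicate cultures. How the 2897 genes were chosen is not stated, but 98.1% of them average 10 FPKM or more, so a member near 0 in one line would mostly be listed when high in the other.

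The members higher in HGC-27 were mainly replication genes. Of the 21 members of the G1/S and replication roles 18 were on the HGC-27 side, beside 1372 of the 2883 genes tested. Of these 21, 9 were called for HGC-27, beside 12% of all genes, and none for AGS-1. MCM7 averaged 41.4 FPKM in AGS-1 and 147 FPKM in HGC-27, a log2 difference of −1.81 ± 0.22 (standard error, limma adjusted p = 1.48e-05). FEN1 averaged 24.3 and 72.1 FPKM, POLD2 of polymerase delta 31.4 and 86.5 FPKM, and POLE3 of polymerase epsilon 16.6 and 45.1 FPKM. UHRF1, MCM5, MCM2, RFC2 and MCM4 were the others of this group, at log2 differences from −1.32 to −1.06. PCNA and POLD1 did not follow them, with differences of 0.58 and 0.28 that were not called. Of the 35 members of the G2 and mitosis roles 3 were called for HGC-27, beside the same 12% of all genes, namely KIF20A at −1.28, CKS2 at −1.17 and KIF4A at −1.04. CDC25B of this group was called for AGS-1, at 1.22.

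Some CDK inhibitors, and CDK6 among the G1 kinases, also differed between the lines. CDKN2A averaged 0.0499 FPKM in AGS-1 and 55.1 FPKM in HGC-27, a log2 difference of −5.70 ± 0.31 on the scale of FPKM + 1. CDKN2C averaged 1.57 and 30.1 FPKM. KIF26A, a kinesin-like protein without a known part in mitosis, averaged 0.0474 and 31.2 FPKM, with 9 fragments in untreated AGS-1 cells and 1 after ISO. On the other side stood CDKN1A with 188 FPKM in AGS-1 and 16.8 FPKM in HGC-27, a difference of 3.41 ± 0.21 (limma adjusted p = 1.63e-08). CDKN2B averaged 52.3 and 13.6 FPKM, CDK6 27.8 and 8.69 FPKM, CDC25B 106 and 44.2 FPKM and PLK2 49.7 and 22.4 FPKM.

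**Figure D4:**
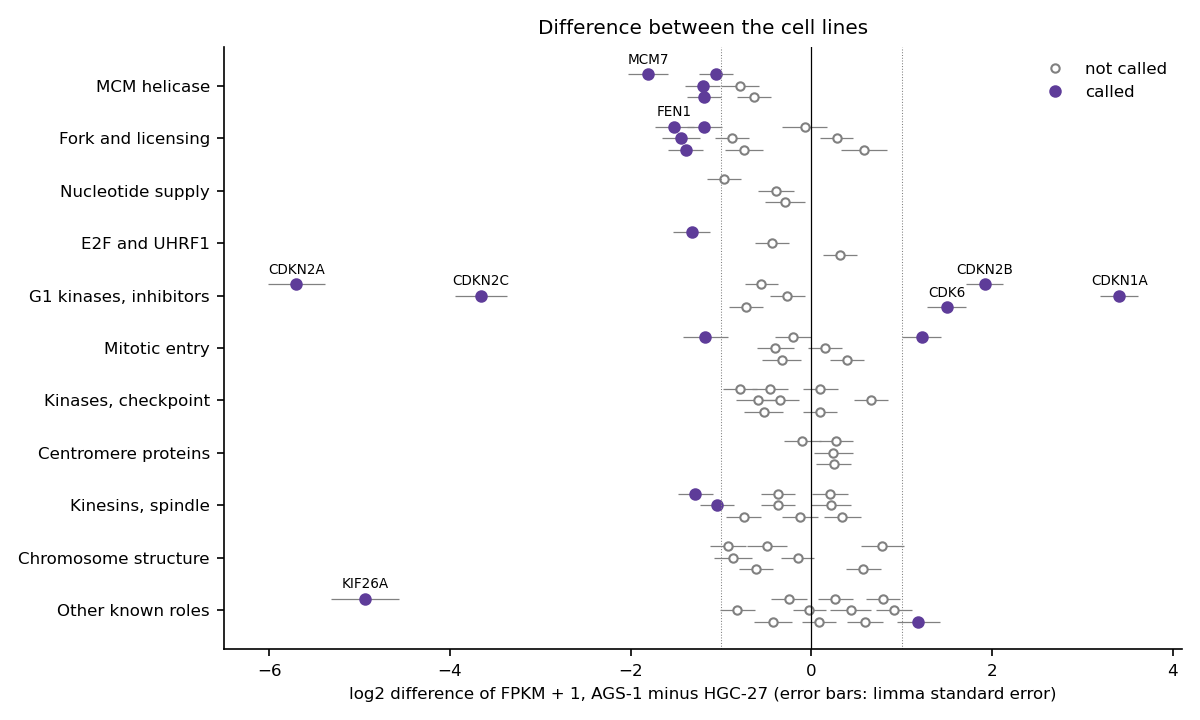
Log2 difference of FPKM + 1 between the lines, AGS-1 minus HGC-27, by role, with limma standard errors. Filled points passed an adjusted p under 0.05 and a 2-fold difference (dotted lines). Most filled points in the replication roles lie left of 0, the HGC-27 side, while the CDK inhibitors lie at both ends, from −5.70 for CDKN2A to 3.41 for CDKN1A.

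Promoter sequence was looked at for motifs known from these gene classes, since roles differed in their ratios. RefSeq promoter windows of 300 bases (250 before the start and 50 after it, GRCh38.p14) were found for 69 of the 76 members, and not for AURKA, BIRC5, BUB3, CDK2, MCM4, MCM5 and TPX2. Searched on both strands were the E2F motif (TTT, any 2 bases, CGC), the CHR as TTTGAA or TTCGAA, and the NF-Y box CCAAT, and matches were allowed to overlap. An E2F match was in 10 of 19 promoters of the G1/S and replication roles (52.6%) and in 2 of 31 of the G2 and mitosis roles (6.45%), against 6.89% of all 35116 promoters and 10.9% of the 2243 protein-coding genes of the series. All 4 MCM promoters found (MCM2, MCM3, MCM6 and MCM7) held one. A CHR match was in 22 of the 31 mitotic promoters (71.0%) and 2 of the 19 replication promoters (10.5%), against 16.4% of all promoters and 10.6% of the protein-coding genes of the series. The NF-Y box was in 71.0% and 47.4% of these groups, against 34.6% and 40.1%, and CHR and NF-Y box stood together in 17 of the 31 mitotic promoters (54.8%), against 6.38% and 5.39%.

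**Figure D5:**
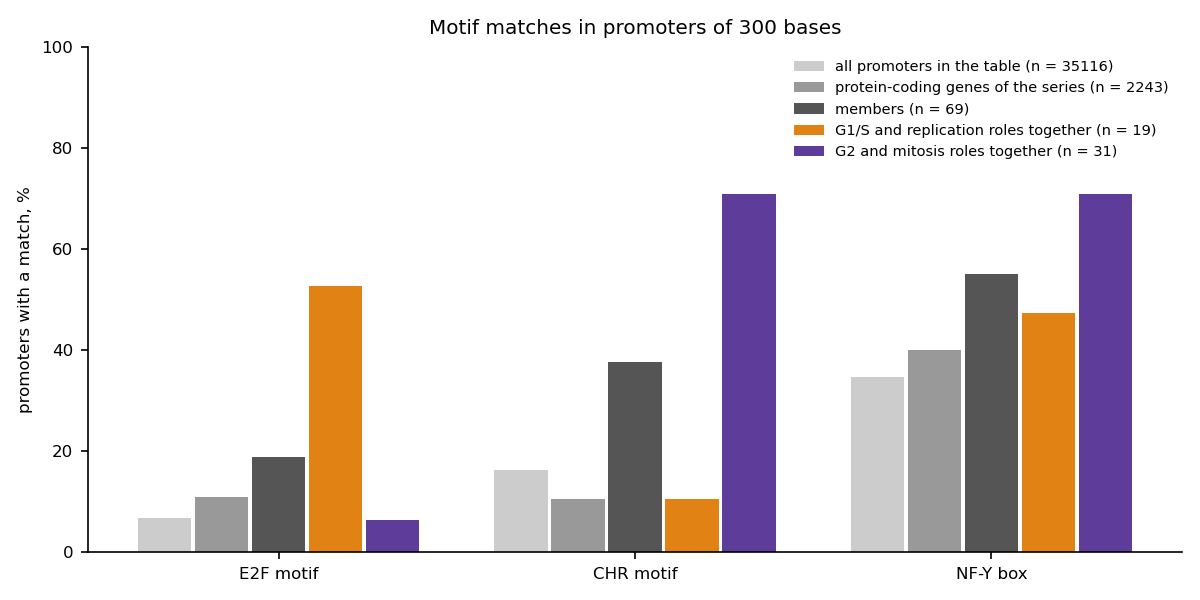
Share of promoters with at least 1 match, in percent, for the E2F motif, the CHR and the NF-Y box. Bars show all promoters of the RefSeq table, the protein-coding genes of the series, all members, and members of the replication and mitotic roles. E2F matches are most frequent in the replication roles (52.6%) and CHR matches in the mitotic roles (71.0%).

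The 13 members with an E2F match had a median log2 ratio of −0.30 for AGS-1 and −0.18 for HGC-27, and the 56 without one −0.10 and −0.07. The 26 with a CHR match had medians of −0.02 and 0.00, and the 43 without one −0.13 and −0.17. Relative to all genes the medians with an E2F match were −0.02 and −0.07, and without one 0.18 and 0.03. On that scale they were 0.27 and 0.11 with a CHR match, and 0.16 and −0.06 without one. A match describes the letters in the window and is not evidence of binding. Bases upstream of the start are shown for the MCM subunits MCM6 and MCM7, for CDC6, which fell most in AGS-1, for CKS2, which rose most there, and for CDC20, the mitotic checkpoint member that fell. Capitals mark matches to the 3 motifs, each line runs 5′ to 3′ on the strand of the gene, and bases are from RefSeq on GRCh38.p14. The stretch of MCM6 is chr2:135876477-135876693 on the minus strand. That of MCM7 is chr7:100101398-100101604 on the minus strand, and that of CDC6 is chr17:40287733-40287853 on the plus strand. That of CKS2 is chr9:89311027-89311191 on the plus strand, and that of CDC20 is chr1:43358783-43358950 on the plus strand.
MCM6: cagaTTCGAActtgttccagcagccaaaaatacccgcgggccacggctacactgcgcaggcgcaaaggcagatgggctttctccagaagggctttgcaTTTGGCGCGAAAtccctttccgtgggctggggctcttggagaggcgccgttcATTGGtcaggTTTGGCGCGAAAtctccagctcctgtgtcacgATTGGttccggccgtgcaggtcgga
MCM7: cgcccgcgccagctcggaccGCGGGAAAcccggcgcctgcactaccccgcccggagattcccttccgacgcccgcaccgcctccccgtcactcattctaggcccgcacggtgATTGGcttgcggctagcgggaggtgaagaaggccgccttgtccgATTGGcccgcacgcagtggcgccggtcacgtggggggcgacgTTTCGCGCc
CDC6: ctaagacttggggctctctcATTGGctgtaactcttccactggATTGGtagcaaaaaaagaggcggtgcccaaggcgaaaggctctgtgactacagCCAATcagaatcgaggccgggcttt
CKS2: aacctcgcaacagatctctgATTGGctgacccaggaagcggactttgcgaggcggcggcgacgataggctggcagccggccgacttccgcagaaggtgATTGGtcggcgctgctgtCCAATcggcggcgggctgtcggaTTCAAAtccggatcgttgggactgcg
CDC20: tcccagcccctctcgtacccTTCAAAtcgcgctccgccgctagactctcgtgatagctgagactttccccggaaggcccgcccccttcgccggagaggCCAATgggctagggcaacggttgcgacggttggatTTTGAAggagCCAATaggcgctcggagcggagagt

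The MCM6 stretch holds 2 copies of a run with overlapping E2F matches on both strands, 4 matches in all, and MCM7 holds 2 E2F matches near the ends of its stretch. CDC6 shows 3 NF-Y boxes here, and its 1 E2F match lies after the start, outside the bases shown. CKS2 and CDC20 show no E2F match, and hold 1 and 2 CHR matches with 3 and 2 NF-Y boxes.

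Genes of the same pathways were also taken from lists that the name rule did not use, and that share genes with the members. Of 42 S phase genes 21 were in the table, 11 of them members, and their median log2 ratio was −0.30 for AGS-1 and −0.19 for HGC-27. The 10 outside the rule had medians of −0.25 and −0.23. At 1.5-fold 3 of the 21 fell in AGS-1, beside 24.2% of all genes, and none rose, beside 2.46%, and none passed in HGC-27, where 5.41% fell and 2.39% rose. Relative to the median of all genes, 1 of the 21 fell in AGS-1, beside 10.1%, and none rose, beside 5.76%. Of 54 G2 and mitosis genes 40 were in the table, 20 of them members, with medians of −0.06 and −0.02. The 20 outside the rule had medians of −0.26 and 0.00, so in AGS-1 they lay no higher than the S phase genes outside the rule. In AGS-1 6 of the 40 fell and 2 rose by 1.5-fold, and in HGC-27 none fell and 1 rose, to be read beside the same shares of all genes. Relative to the median of all genes the balance in AGS-1 turned, with 2 falls and 6 rises, beside 10.1% and 5.76% of all genes. JPT1, a microtubule-associated protein of that list, fell at least 2-fold in AGS-1, with 176 and 80.8 FPKM there and 44.3 and 35.5 FPKM in HGC-27. No gene on the lists outside the members reached 2-fold in HGC-27.

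The G1 entry list held the largest fall. Of its 21 genes 7 were in the table, and in AGS-1 3 fell and 1 rose by 1.5-fold, beside 24.2% and 2.46% of all genes. In HGC-27 none did, beside 5.41% and 2.39%. CCND1, the D cyclin that activates CDK4 and CDK6, had 289 FPKM in untreated AGS-1 cells and 102 after ISO, against 54.4 and 54.1 FPKM in HGC-27. The AGS-1 control stood far above the other libraries, and the log2 ratio was −1.49 in AGS-1 (−1.20 relative to all genes) and −0.01 in HGC-27. CCND3, a second D cyclin, had 22.5 and 10.3 FPKM in AGS-1 and 11.96 and 7.69 FPKM in HGC-27, with ratios of −1.06 and −0.58, so that both ISO libraries were the lower. The third fall was MYC, at −0.97 in AGS-1 and −0.34 in HGC-27. The rise was FOXM1, a factor that activates mitotic genes, with 14.3 and 23.3 FPKM in AGS-1 and 35.1 and 40.9 FPKM in HGC-27. MYC and FOXM1 are outside the rule for named genes and were picked with their values already seen.

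Of 27 replication accessory genes 12 were in the table, and their median was −0.21 for AGS-1 and −0.09 for HGC-27, with, at 1.5-fold, no change in AGS-1 and 1 fall in HGC-27. Of 34 genes of the anaphase promoting complex and checkpoints 15 were in the table, with medians of −0.28 and −0.01, 2 falls in AGS-1 and no change in HGC-27. The same 1.5-fold shares of all genes, 24.2% lower and 2.46% higher in AGS-1 and 5.41% and 2.39% in HGC-27, apply to both lists. Relative to the median of all genes, no gene of the anaphase list fell and 1 rose in AGS-1, beside 10.1% and 5.76% of all genes. No gene of any of these lists reached an adjusted p under 0.05 for ISO in limma. At an unadjusted p under 0.05, beside 17.8% of all genes lower and 2.22% higher, the counts of lower and higher genes were 4 and 0 for the S phase list, 2 and 1 for the G2 and mitosis list, 3 and 1 for the G1 entry list, 0 and 0 for the accessory list and 2 and 1 for the anaphase list.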

How the data were processed

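The authors deposited 1 table of FPKM values for 4 libraries and 2897 genes, and how these genes were selected is not given in the sources used here. The text of the study speaks of duplicates, while the table has 1 column per condition, and whether a column pools cultures is not stated. The submitters' processing notes name CASAVA 1.8, HISAT2 and the build hg38 (GRCh38). Multiplying FPKM by gene length and the recovered library total gave whole fragments for 100% of values (tolerance 0.05 fragments). Table lengths were within 20% of the exon length in GENCODE for 75 of 76 members, and exon overlaps were taken from the same annotation.

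Log2 ratios used a pseudocount of 1 FPKM. limma 3.58.1 in R 4.3.3 (lmFit, eBayes with trend) was fitted to log2(FPKM + 1) over 2883 genes with Benjamini-Hochberg adjustment, and it was tested on simulated data. In 5 sets with planted 4-fold changes it found 100% of these, and at most 5.21% of its calls were false, with noise equal for all genes, which is easier than real data. Smaller changes, such as the shared log2 change of −0.67 for TK1, were not planted, so their recovery was not tested. Other steps ran in Python 3.11.15 with scipy 1.17.1, numpy 2.4.6 and pandas 2.3.3, and figures were drawn with matplotlib 3.10.9. Where several starts were listed for a gene (17 members), the first promoter was used. Genes named are members past 2-fold or called in the shared test, the 5 largest rises and falls per line, the 10 largest line differences each way, 42 members fixed by name, list genes past 2-fold and CCND1. Others named were chosen after their values were seen. Members, roles and lists were chosen with earlier results of these data known. Alternatives were other pseudocounts, filters, scalings and model terms.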

Additional observations from a re-analysis of the deposited data

How the results depend on the processing

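The number of members past 2-fold in AGS-1, 1 as reported (a fall, CDC6), was 3 with a pseudocount of 0.1, 0 with a pseudocount of 5, and 2 on the relative scale and with upper-quartile scaling alike. Those 2 were rises, CKS2 at 1.15 and 1.28 and CDKN2C at 1.12 and 1.04, with CDC6 at −0.73 and −0.61. The number past 1.5-fold in AGS-1, 9 as reported, was 14 with upper-quartile scaling. The median log2 ratio of the members in AGS-1, −0.13 as reported, was 0.16 relative to all genes and 0.28 with upper-quartile scaling, a reversal that follows from the shift of all genes. In HGC-27, −0.13 as reported, it was −0.0275 relative to all genes and 0.00707 with upper-quartile scaling, which is a reversal close to 0. Other pseudocounts, filters and leaving out the 12 members of other known roles moved the median of all members by less than 0.1, while that of the G1 kinases and inhibitors in AGS-1 went from −0.15 to −0.26 with a pseudocount of 0.1. Of the 11 role medians, 5 in AGS-1 and 4 in HGC-27 went from below to above 0 relative to all genes, and 7 and 4 with upper-quartile scaling, and none went the other way or flipped with another pseudocount. No member was called in the shared comparison under any of its 7 alternatives, where the lowest adjusted p of a member in limma ranged from 0.0614 to 1.00. Between the lines, from 14 to 25 members were called, beside 20 as reported. Motif shares over all members with a promoter were 18.8% for E2F, 37.7% for the CHR and 55.1% for the NF-Y box. With members under 20 FPKM left out they were 17.3%, 30.8% and 59.6%, within the binomial intervals of the first values. The shares by role were not rerun in this way. Leaving out a library leaves no residual degree of freedom, so no such fit was tested. Counting limits CDKN2A and KIF26A in AGS-1, with under 10 fragments per library, and CDKN2C less so.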

Other observations

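Genes of the p53 response also separated the lines. Of 25 p53 target genes on the list 11 were in the table, 2 of them members. All 11 had a higher mean in AGS-1, beside 1511 of the 2883 genes tested on that side. In the limma line term 9 of the 11 were called for AGS-1, beside 19.5% of all genes tested. SFN (14-3-3 sigma), which holds back mitotic entry, had 228 and 136 FPKM in AGS-1 and 4.31 and 3.31 FPKM in HGC-27. BTG2, an antiproliferative gene, had 53.5 and 56.5 FPKM in AGS-1 and 5.85 and 6.10 FPKM in HGC-27. SFN and BTG2 averaged 3.81 and 5.98 FPKM in HGC-27, and 98.1% of the listed genes average 10 FPKM or more. Such targets would mostly be listed through AGS-1, so the 11 and the 9 are counts among listed genes only. With ISO the median log2 ratio of the 11 was −0.13 for AGS-1 and −0.05 for HGC-27, and 2 fell by 1.5-fold in each line with no rise, beside 24.2% lower and 2.46% higher of all genes in AGS-1 and 5.41% and 2.39% in HGC-27. Relative to the median of all genes, none of the 11 fell in AGS-1, beside 10.1%, and 1 fell in HGC-27, beside 3.19%. SFN and BTG2 were chosen after their values were seen.

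Of 18 DNA damage signalling genes 5 were in the table. All 5 had a higher mean in HGC-27, beside 1372 of the 2883 genes tested on that side. None of the 5 was called between the lines, beside 12% of all genes called for HGC-27 and 19.5% for AGS-1. The median log2 ratio of the 5 with ISO was −0.26 for AGS-1 and −0.17 for HGC-27. PKMYT1, which inhibits CDK1, had 22.2 and 14.2 FPKM in AGS-1 and 25.7 and 16.9 FPKM in HGC-27, and was chosen after its values were seen.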
